A study of Caenorhabditis elegans with 5 samples.

Results

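R09E12.9 and sti-1 are protein-coding genes that lie close together on chromosome V of the nematode Caenorhabditis elegans, and both had far more reads in worms kept on bisphenol TMC than in solvent controls. They are 2 of the 45251 gene rows in the deposited count tables and were taken by symbol. R09E12.9 was chosen by its measured difference between the treatments, and sti-1 by its position beside it with its own difference known, so the levels and fold changes of both are given as descriptions, without a test. The treated group was 3 libraries from wild-type N2 worms, whole animals between L4 and adulthood, that had spent 24 h at 20 °C on agar with 1 mM bisphenol TMC (BPTMC), a bisphenol. The control group was 2 libraries from N2 worms of the same stage and time on agar with dimethyl sulfoxide (DMSO); the labels' protocol gives 1 mM as the final concentration of both compounds. The worms were maintained on Escherichia coli OP50 and were wild type in both groups. RNA was read as 3' tags, so that a transcript gives a read near its end whatever its length. Nothing in the labels tells if the replicates were separate cultures, so the spread behind the p-values may be technical. The libraries are bulk RNA, in which fewer cells of a type and less RNA per cell cannot be told apart.

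STI-1 is the worm member of the STI1/HOP family of co-chaperones, whose tetratricopeptide (TPR) domains bind the ends of HSP70 and HSP90. In yeast and mammals this adaptor hands client proteins from HSP70 to HSP90, and in worms sti-1 is needed for normal resistance to heat. The cytosolic chaperone machinery around it comprises HSP90 itself, HSP70, J-domain proteins that load HSP70, further TPR proteins and the heat shock factor HSF-1, which switches on chaperone genes. R09E12.9 carries only a sequence name in the annotation, and no role is given for it here.

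Libraries held 16531114 to 23579588 counts in the BPTMC group and 19819975 to 24362712 in the DMSO group. Ribosomal RNA genes took 13.6 to 24.7% of counts in BPTMC libraries and 11.2 to 17.7% in DMSO libraries. Yolk protein genes (vit-1 to vit-6), which adult hermaphrodites express, were read in every library, at 1.42 to 2.26% of counts in BPTMC libraries and 1.27 to 1.76% in DMSO libraries. Major sperm protein genes took 0.00545 to 0.0389% of counts in BPTMC libraries and 0.00454 to 0.00899% in DMSO libraries, with BPTMC replicates 1 and 3 above the other 3 libraries. The intestinal genes ges-1 and elt-2, the muscle genes unc-54 and myo-3 and the adult collagen col-19 had reads in all 5 libraries. The intestinal genes took 0.00145 to 0.00206% of counts in BPTMC libraries and 0.000891 to 0.000974% in DMSO libraries. The muscle genes took 0.0110 to 0.0323% and 0.00767 to 0.0102%. Both shares were higher in every BPTMC library than in either DMSO library. The share of col-19 overlapped, at 0.0329 to 0.0717% in BPTMC and 0.0562 to 0.0567% in DMSO.

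On WBcel235, as annotated by Ensembl 115, sti-1 (WBGene00019983) occupies chromosome V from 773518 to 774775 on the plus strand, in 4 exons. R09E12.9 (WBGene00044514) occupies 777600 to 778245 on the same strand, in 3 exons. RefSeq gives the same start and end for both genes. The 2824 bases between them hold another gene, srbc-58, from 774995 to 777272, also on the plus strand. srbc-58 begins 219 bases after the end of sti-1 and ends 327 bases before the start of R09E12.9. No annotated gene overlaps either member.

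**Figure D1:**
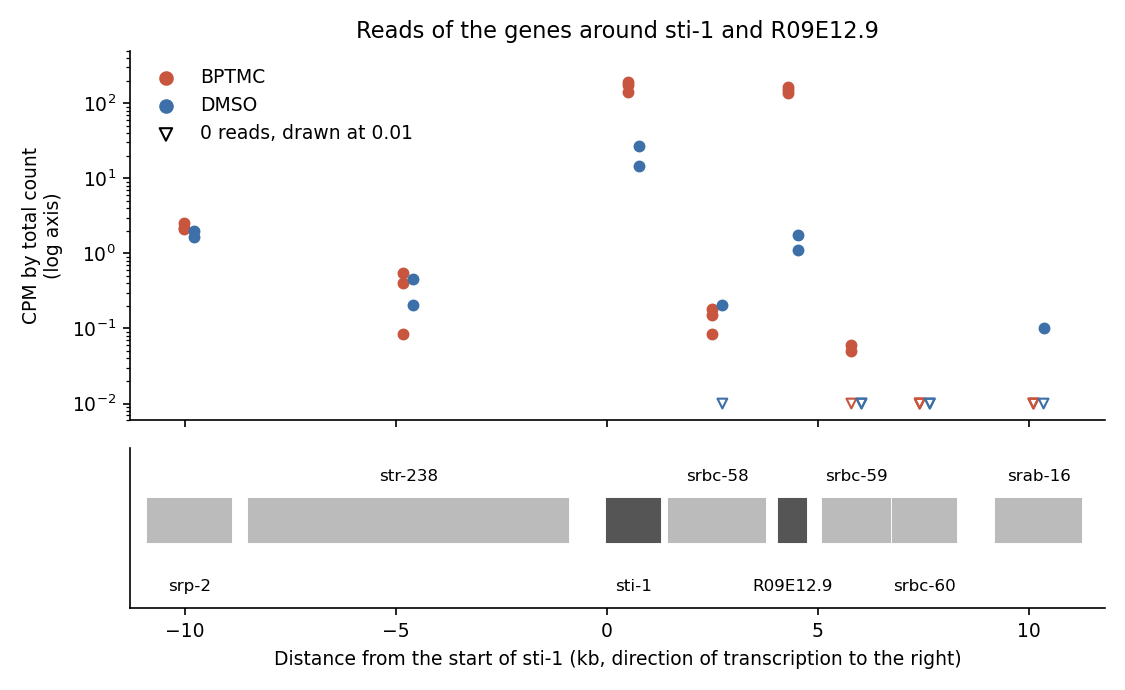
Genes within 10 kb of sti-1 and R09E12.9 that have a row in the tables, drawn to scale by their distance from the start of sti-1 (x axis, kb; all are on the plus strand). The upper panel gives CPM by total count in each library on a log axis, with BPTMC points left of DMSO points over each gene and open triangles for libraries with 0 reads. The sti-1 and R09E12.9 points of the BPTMC libraries stand above those of the DMSO libraries, and srbc-58 between them has at most 5 reads in any library.

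R09E12.9 was close to silent without BPTMC. It had 3218, 3330 and 2509 reads in BPTMC replicates 1, 2 and 3, against 43 and 22 reads in DMSO replicates 1 and 2. In CPM (counts scaled to library size, with normalisation between libraries by the trimmed mean of M-values, TMM) these were 157, 170 and 128 CPM in the BPTMC libraries and 1.93 and 1.03 CPM in the DMSO libraries. The groups were far apart, with the lowest BPTMC library 66.2 times the highest DMSO library. The group means were 152 ± 21.8 CPM in BPTMC (SD, n = 3) and 1.48 ± 0.630 CPM in DMSO (SD, n = 2). The fitted log2 fold change of BPTMC over DMSO was 6.67 ± 0.54 (SE). Pooled over libraries, the ratio of BPTMC to DMSO reads, each over the group's total count, was 102, with an exact 95% interval of 80.3 to 133 that covers counting error only. The rule used this contrast: R09E12.9 was among the 15 genes that edgeR called higher, which are 0.105% of the 14238 genes tested, and nothing further is read from that count. By log2 fold change it ranked 42nd of the 14238 tested genes.

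sti-1 also stood higher in every BPTMC library than in either DMSO library, from a DMSO level well above that of R09E12.9. It had 3323, 3785 and 2928 reads in BPTMC replicates 1, 2 and 3, against 360 and 542 reads in DMSO replicates 1 and 2. The corresponding levels were 162, 193 and 149 CPM in the BPTMC libraries and 16.12 and 25.5 CPM in the DMSO libraries. The lowest BPTMC library was 5.84 times the highest DMSO library. The means were 168 ± 22.7 CPM in BPTMC (SD, n = 3) and 20.8 ± 6.61 CPM in DMSO (SD, n = 2), and the fitted log2 fold change was 3.02 ± 0.42 (SE). The pooled ratio was 8.18, with an exact 95% interval of 7.64 to 8.77 for counting error. sti-1 was not among the called genes, and by log2 fold change it ranked 308th. Of all tested genes, 13.4% had every BPTMC library above every DMSO library, as both members did.

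**Figure D2:**
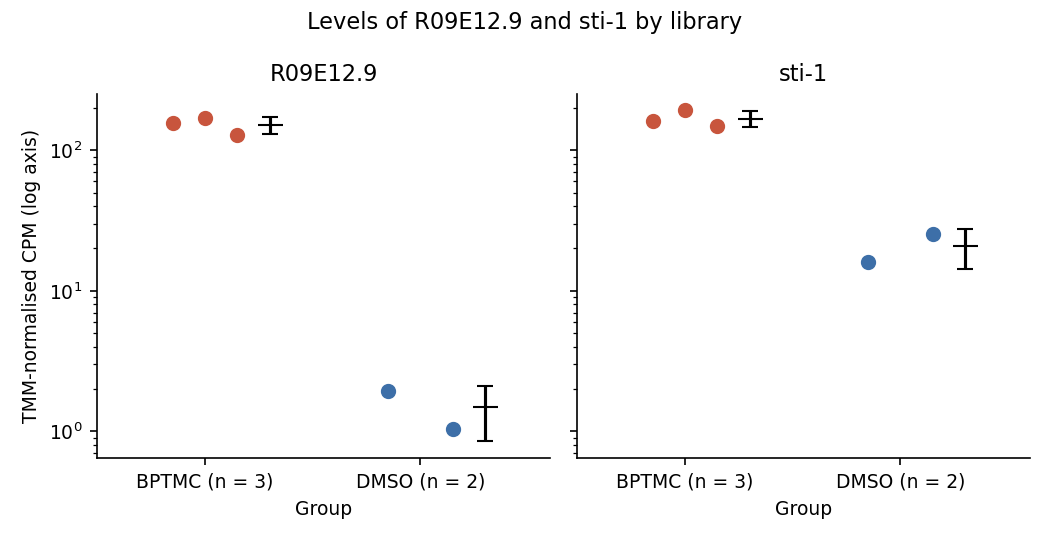
TMM-normalised CPM (y axis, log scale) of R09E12.9 and sti-1 in each library, with BPTMC left of DMSO; each point is a library and the black bars show the mean ± SD (n = 3 and n = 2). The BPTMC libraries of both genes lie between 128 and 193 CPM, while the DMSO libraries lie near 1 to 2 CPM for R09E12.9 and at 16.12 and 25.5 CPM for sti-1.

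The reads of the pair were nearly equal with BPTMC and far apart without it. R09E12.9 had 0.968, 0.880 and 0.857 reads for each sti-1 read in BPTMC replicates 1, 2 and 3, against 0.119 and 0.0406 in DMSO replicates 1 and 2. The mean ratio was 0.902 ± 0.0589 in BPTMC (SD, n = 3) and 0.0800 ± 0.0558 in DMSO (SD, n = 2). This ratio is taken within a library, so it does not depend on the scaling between libraries. As a share of the reads of both genes together, R09E12.9 held 49.2%, 46.8% and 46.1% in the BPTMC libraries. It held 10.7% in DMSO replicate 1, with an exact (Clopper-Pearson) 95% interval of 7.83 to 14.1%, and 3.90% in DMSO replicate 2, with an interval of 2.46 to 5.85%. The 2 DMSO intervals do not overlap, so the control libraries differed from each other beyond counting error. In BPTMC replicates 1, 2 and 3 the intervals were 47.98 to 50.42%, 45.64 to 47.97% and 44.81 to 47.48%. The interval of BPTMC replicate 1 thus lay above those of replicates 2 and 3, by a narrow margin for replicate 2.

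The excess of sti-1 in BPTMC was close in size to that of R09E12.9. The difference between the group means was 147 CPM for sti-1 and 150.1 CPM for R09E12.9, a ratio of 0.982. Taken library by library against the DMSO mean, sti-1 was in excess by 142, 172 and 128 CPM in BPTMC replicates 1, 2 and 3. R09E12.9 was in excess by 156, 169 and 126 CPM in the same libraries, so that the ratio of the excesses was 0.909, 1.02 and 1.02.

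When the reads of R09E12.9 were subtracted from those of sti-1 in each library, a step chosen after the values were seen, the groups overlapped. The remainder was 105, 455 and 419 reads in BPTMC replicates 1, 2 and 3 and 317 and 520 reads in DMSO replicates 1 and 2. In CPM it was 5.13, 23.2 and 21.3 in the BPTMC libraries and 14.2 and 24.4 in the DMSO libraries, with means of 16.6 ± 9.94 CPM (SD, n = 3) and 19.3 ± 7.25 CPM (SD, n = 2). BPTMC replicate 1 was the lowest of the 5 libraries, and BPTMC replicates 2 and 3 lay between the DMSO libraries. The log2 fold change of the remainder was -0.22 ± 0.62 (SE), within its error of 0, where sti-1 as deposited had 3.02. The fit took the remainder as a count and left out the counting error that the subtraction adds. Because the excesses had already been seen to match, a difference near 0 follows from the subtraction itself, and it tests no cause.

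**Figure D3:**
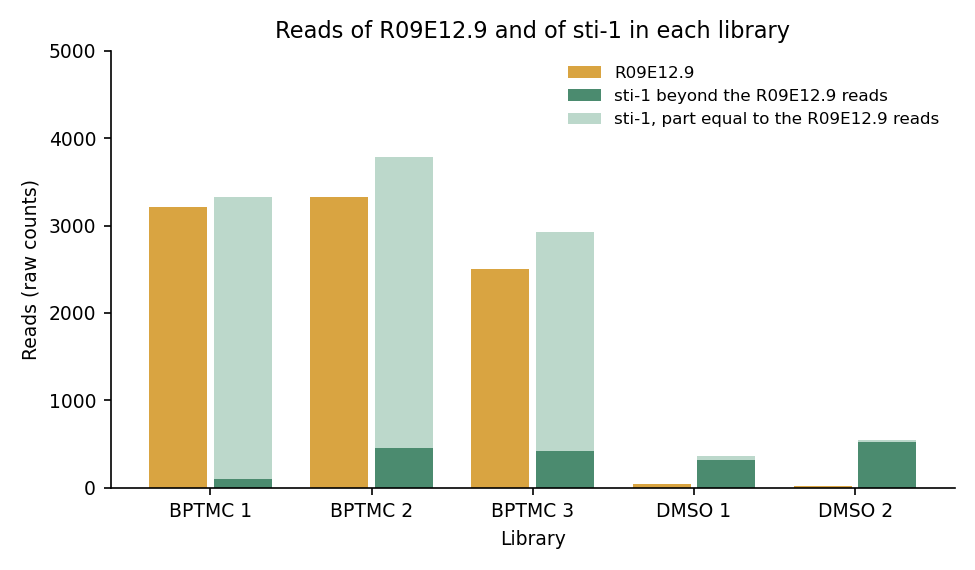
Raw reads (y axis) of R09E12.9 and of sti-1 in each library (x axis, BPTMC left of DMSO). Each sti-1 bar is split into a light part equal to the R09E12.9 reads of that library and a dark remainder, which is 105, 455 and 419 reads in the BPTMC libraries and 317 and 520 reads in the DMSO libraries.

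The way in which the authors assigned reads to genes is not fully known. The tables were searched for genes of at least 500 reads that lie wholly inside the annotated span of a longer gene. The longer gene had at least as many reads as the nested one in every library in 216 of 222 such pairs. For a nearby gene that did not overlap the nested one, the number was 40 of 222. That nearby gene could itself lie inside the longer gene. Some nested genes were on the opposite strand and shared no exon with the longer gene, their host. There the numbers were 94 of 96 for the host and 19 of 96 for the nearby gene. These counts show which gene had more reads, not which reads were shared. In neither annotation used here does R09E12.9 lie inside sti-1, so the nested pairs are a different arrangement from this one. The sources used here do not state the gene spans that the authors counted over. Whether reads of R09E12.9 were also counted for sti-1, or whether transcripts ran from one gene into the other, was not tested.

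The other genes around the members, mostly chemoreceptor genes, were little read. Within 10 kb, 6 other genes had a row and 5 of them a read in any library. srbc-58, a chemoreceptor gene of the srbc family that lies between the members, had 2, 3 and 3 reads in BPTMC replicates 1, 2 and 3 and 5 and 0 reads in DMSO replicates 1 and 2. srbc-59, 393 bases beyond R09E12.9, had 2 reads in the BPTMC libraries together and 0 in the DMSO libraries, and srbc-60 had 0 in all. The chemoreceptor genes srab-16 and str-238 had 0 and 19 reads over the BPTMC libraries and 2 and 14 over the DMSO libraries. At these counts no difference was detectable. srp-2, a serpin gene upstream, was the 1 neighbour that passed the filter on low counts. It stood at 2.88, 2.14 and 1.83 CPM in the BPTMC libraries and 1.79 and 1.83 CPM in the DMSO libraries, a log2 fold change of 0.34 ± 0.52 (edgeR adjusted p = 0.842). BPTMC replicate 3 lay at the level of the DMSO libraries.

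Within 50 kb, 5 genes beside the members passed the filter, and edgeR called 0 of them, with 0 by DESeq2 and 0 by limma-voom. Over all tested genes these methods called 0.105%, 1.69% and 0.00702%, so 0 calls among 5 genes lies near those shares. At an unadjusted p under 0.05, 3 of the 5 were higher, where 7% of all tested genes were. icl-1, the worm's bifunctional glyoxylate cycle enzyme, stood at 115, 109 and 140.2 CPM in the BPTMC libraries and 50.5 and 62.0 CPM in the DMSO libraries (log2 fold change 1.11 ± 0.36, edgeR adjusted p = 0.533). srp-1, a second serpin gene, had 174, 123 and 106 reads in the BPTMC libraries and 87 and 43 in the DMSO libraries, with a log2 fold change of 1.18 ± 0.51 (edgeR adjusted p = 0.671). srh-2, a chemoreceptor gene, had 83 reads over the BPTMC libraries and 7 over the DMSO libraries (edgeR adjusted p = 0.401). R13D11.4 stood at 2.64, 2.81 and 3.10 CPM in the BPTMC libraries and 2.37 and 1.83 CPM in the DMSO libraries (log2 fold change 0.44 ± 0.49, edgeR adjusted p = 0.834). These 4 genes were named after their values were seen. In these 4 of the 5 every BPTMC library was above every DMSO library, where 13.4% of all tested genes had that order.

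The chaperones and co-chaperones around STI-1 were taken as a list, which also holds hsf-1 and its regulators hsb-1, ddl-1 and ddl-2. Of 21 genes of the HSP90 and HSP70 machinery, all tested, edgeR called 0, as did DESeq2 and limma-voom, and 0 had an unadjusted p under 0.05 in either direction. Over all tested genes edgeR called 0.105%, DESeq2 1.69% and limma-voom 0.00702%, so 0 calls among 21 genes lies near those shares. An unadjusted p under 0.05 went with a higher level in 7% of all tested genes and a lower level in 0.4%. The median log2 fold change of the 21 genes was -0.40, with 20 negative, beside -0.09 over all tested genes. Fold changes ran from -0.68 to 0.12. In 4 of the 21 every BPTMC library was below every DMSO library, where 9.96% of all tested genes had that order. The 20 negative values became 12 without BPTMC replicate 1, with a median of -0.09. Without DMSO replicate 2 they became 14, with a median of -0.16. In those settings the medians over all tested genes were 0.02 and 0.12. Without BPTMC replicate 2, BPTMC replicate 3 and DMSO replicate 1 in turn, 20, 18 and 19 were negative. The list medians were then -0.55, -0.43 and -0.59, beside -0.07, 0.04 and 0.10 over all tested genes.

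hsp-90, the cytosolic HSP90, stood at 477, 1230 and 1167 CPM in BPTMC replicates 1, 2 and 3 and 1070.1 and 1431 CPM in DMSO replicates 1 and 2, a log2 fold change of -0.38 ± 0.46. BPTMC replicate 1 was the low library and the others overlapped. hsp-1, the constitutive HSP70, had the same low library, with 221, 691 and 538 CPM in BPTMC and 436 and 728 CPM in DMSO. cdc-37, which brings protein kinases to HSP90, stood at 14.5, 52.2 and 57.9 CPM in BPTMC and 47.5 and 78.1 CPM in DMSO (log2 fold change -0.60 ± 0.58). daf-41, the p23 co-chaperone that stabilises client-bound HSP90, stood at 339, 442 and 333 CPM in BPTMC and 571 and 465 CPM in DMSO, with the groups apart (log2 fold change -0.48 ± 0.34). hsf-1, the heat shock transcription factor, stood at 8.65, 19.7 and 22.2 CPM in BPTMC and 17.4 and 25.01 CPM in DMSO. The edgeR adjusted p of these 5 genes lay between 0.834 and 0.857.

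The sti-1 remainder, unlike sti-1 as deposited, was lowest in BPTMC replicate 1 and highest in DMSO replicate 2, as were hsp-90, hsp-1 and cdc-37. In the machinery list, hsp-110, daf-41, ahsa-1, chn-1, bag-1, unc-23 and hsb-1 were not. Genes outside the list also had this order, among them D2005.4, and the share of all genes with it was not counted. The order and the distances below rest in part on the poorly determined remainder of BPTMC replicate 1. The patterns were described by the root mean square difference in log2 CPM over the 5 libraries, after each gene was centred on its own mean. Over the 19 machinery genes with a mean of at least 10 CPM, its median was 0.38 for the remainder and 1.76 for sti-1 as deposited. The medians over all 6998 genes at that level were 0.79 and 1.70. The machinery genes ran from 0.20 to 1.01 from the remainder. ahsa-1, an activator of the HSP90 ATPase, at 1.01, chn-1, the worm CHIP ubiquitin ligase, at 0.998 and bag-1, a nucleotide exchange factor of HSP70, at 0.88 were farther from it than the median gene, and daf-41 was near that median at 0.78; these genes were picked out after their values were seen. cdc-37, the nearest machinery gene, ranked 137th among those 6998 in nearness to the remainder, so many genes outside the list lay nearer. Subtracting a number of reads close in size to the BPTMC excess of sti-1 brings it nearer to genes without such an excess. The smaller distances therefore restate the match of the excesses. All of these values come from the same 5 libraries and share their depth and composition.

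**Figure D4:**
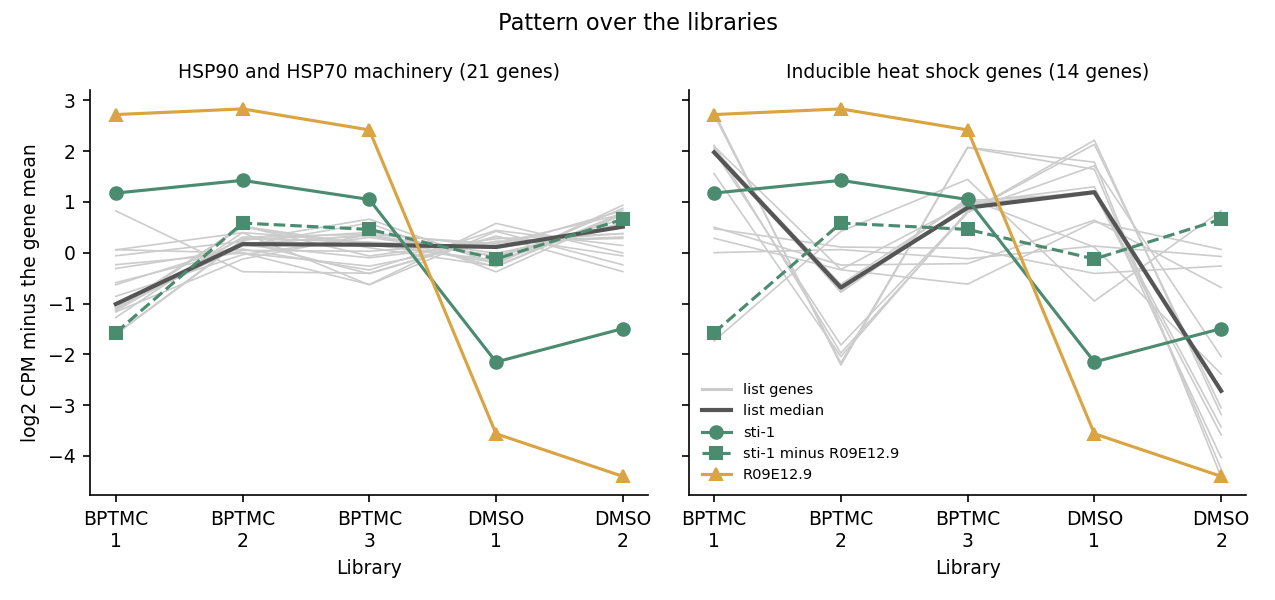
Pattern over the 5 libraries (x axis, BPTMC left of DMSO) as log2 CPM minus the mean of each gene (y axis), for the HSP90 and HSP70 machinery on the left and the inducible heat shock genes on the right. Grey lines are list genes, the dark line their median, and the coloured lines R09E12.9, sti-1 and sti-1 after subtraction of the R09E12.9 reads. R09E12.9 and sti-1 are high in all 3 BPTMC libraries, the machinery median is lowest in BPTMC replicate 1 at -1.01, and the inducible median is lowest in DMSO replicate 2 at -2.72.

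HSF-1 switches on many heat shock genes under heat or protein damage. The list of inducible heat shock genes also holds aip-1, entered as an arsenite-inducible gene, and whether each member responds to heat was not checked. Of the 14 genes tested, edgeR, DESeq2 and limma-voom each called 0, and 0 had an unadjusted p under 0.05. Over all tested genes edgeR called 0.105%, DESeq2 1.69% and limma-voom 0.00702%. At an unadjusted edgeR p under 0.05, 7% of all tested genes were higher and 0.4% lower. The median log2 fold change of the list was 0.46, with 8 of the 14 positive. hsp-70, an inducible HSP70, had 22, 0 and 12 reads in BPTMC replicates 1, 2 and 3 and 27 and 0 reads in DMSO replicates 1 and 2 (edgeR adjusted p = 0.976). hsp-16.2, a small heat shock protein used as a heat shock reporter, had 138, 6 and 52 reads in BPTMC and 153 and 2 reads in DMSO (edgeR adjusted p = 0.977). Both genes were high in BPTMC replicate 1 and DMSO replicate 1 and nearly unread in BPTMC replicate 2 and DMSO replicate 2. The hsp-16 genes are close copies of one another and may share reads. Neither member of the pair followed that order: BPTMC replicate 2 was their highest library. Other genes of the list, named after their values were seen, were mixed. F44E5.5, an inducible HSP70 gene, ran from 0.235 CPM in DMSO replicate 2 to 48.1 CPM in BPTMC replicate 1. hsp-16.48 ran from 1.65 to 84.4 CPM between the same libraries. sip-1, a small heat shock protein gene, was lowest in BPTMC replicate 1 at 460 CPM and highest in BPTMC replicate 3 at 4167 CPM. Some genes varied less. hsp-25, also a small heat shock protein gene, stood at 38.4, 40.02 and 35.3 CPM in BPTMC and 42.004 and 36.4 CPM in DMSO. hsp-16.1 stood at 148, 115 and 113 CPM in BPTMC and 80.3 and 88.9 CPM in DMSO, and was the 1 gene of the 14 whose groups did not overlap, against 13.4% of all tested genes in that direction. The median of the list depended on single libraries. It was -0.0019 without DMSO replicate 2, with 7 of the 14 positive, and 4.90 without DMSO replicate 1, with 12 of the 14 positive. In the latter setting hsp-16.49 had a log2 fold change of 5.46. The list median was 0.046, 0.62 and 0.21 without BPTMC replicates 1, 2 and 3, with 13 genes tested without replicate 1 or 3. There 8, 12 and 10 genes were positive.

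Genes with the pattern nearest to that of R09E12.9 were sought by the same root mean square difference among 6998 tested genes with a mean of at least 10 CPM. The 5 nearest were R05D8.9 at 0.39, B0024.4 and E02C12.10 at 0.56 each, stdh-2 at 0.59 and drd-50 at 0.84. All but drd-50, on chromosome IV, lie on chromosome V, and the share of candidate genes on that chromosome was not counted. Each was higher in every BPTMC library, which follows from the choice by pattern. With DMSO means of 0.02 to 0.57 CPM, they reached the mean of 10 CPM only through the BPTMC libraries. stdh-2, named as a member of the steroid dehydrogenase family, stood at 33.3, 27.6 and 47.8 CPM in the BPTMC libraries and 0.224 and 0.376 CPM in the DMSO libraries. R05D8.9 stood at 56.6, 59.5 and 79.7 CPM in the BPTMC libraries and 0.582 and 0.564 CPM in the DMSO libraries. Both its BPTMC and its DMSO levels were below those of R09E12.9. sti-1 itself was 37th in that order, at 1.83.

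The 5 genes nearest to sti-1 as deposited were cyp-34A9 at 0.23, pgp-1 at 0.36, cdr-4 at 0.49, Y41C4A.32 at 0.52 and lys-2 at 0.56. cyp-34A9, a cytochrome P450, stood at 23.6, 19.8 and 13.5 CPM in the BPTMC libraries and 1.79 and 2.54 CPM in the DMSO libraries. pgp-1, a P-glycoprotein efflux pump, stood at 21.8, 28.4 and 37.9 CPM in the BPTMC libraries and 2.82 and 3.15 CPM in the DMSO libraries. cdr-4, of the cadmium-responsive family, stood at 82.4, 183 and 140.5 CPM in the BPTMC libraries and 21.002 and 15.5 CPM in the DMSO libraries. None of the 5 belongs to the HSP90 and HSP70 machinery. This follows from the choice by pattern, since the machinery log2 fold changes ran only from -0.68 to 0.12. The gene nearest to the remainder was D2005.4, at 0.05, with 4.99, 20.7 and 19.6 CPM in the BPTMC libraries and 13.03 and 21.4 CPM in the DMSO libraries.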

How the data were processed

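Each deposited table holds raw read counts by gene symbol for 1 library, and the authors named Bowtie2, bedtools and the build WBcel235, per the submitters' processing notes, without versions, annotation or strand setting. RNA (500 ng in total) went into Lexogen QuantSeq libraries, per the labels' protocols. BPTMC (n = 3) was fitted against DMSO (n = 2) in edgeR 4.0.16 (R 4.3.3) by quasi-likelihood on the counts, scaled by TMM, keeping genes by filterByExpr at a minimum of 10 counts, with Benjamini-Hochberg adjustment over 14238 genes and calls at an adjusted p under 0.05. Each SE was obtained from the log2 fold change and its F statistic. Pattern comparisons used a prior count of 2. The fit was tested on simulated data. Coordinates are from Ensembl 115, to which 42597 of 45251 rows matched by symbol. Members and lists were chosen with earlier results of these data known. Named genes were the members, neighbours within 10 kb, 7 core chaperone genes, list genes with an unadjusted p under 0.05 and the 5 nearest patterns per member; the gene nearest to the remainder and others so marked were named after their values were seen. Alternatives were other scalings and filters, DESeq2 1.42.0, limma-voom (limma 3.58.1), legacy dispersions, rRNA left out, each library left out and a replicate block. Protein relatives were not analysed here.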

Additional observations from a re-analysis of the deposited data

How the results depend on the processing

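Apart from the subtraction of reads, R09E12.9 kept a log2 fold change of 6.32 to 7.18 and sti-1 of 2.71 to 3.41, with both ends reached by leaving out a DMSO library. Where 1 DMSO library was left, its variation was taken to be that of the BPTMC libraries. The log2 fold change of sti-1 turned to -0.22 when the R09E12.9 reads were subtracted, which the subtraction itself brings about. The read ratio of R09E12.9 to sti-1 in BPTMC ran from 0.868 to 0.924 with each library left out. Over all genes, the 15 calls became 2 with total-count scaling, 67 without a filter on low counts, 3 with at least 5 CPM in 2 or more libraries, 241 by DESeq2, 1 by limma-voom, 3 with legacy dispersions and 4 without rRNA genes; the cause was not tested. They ranged from 0 to 43 with each library left out (BPTMC replicate 1 left out gave 43 and BPTMC replicate 3 gave 0, DMSO replicate 1 left out gave 33 and DMSO replicate 2 gave 6). Calls among the inducible heat shock genes ranged from 0 to 1 with each library left out, and those among the HSP90 and HSP70 machinery and the neighbours remained at 0 in every alternative that could be computed. With the replicate number as a block, over replicates 1 and 2 of each group, R09E12.9 had 6.91, sti-1 had 3.21 and 206 genes were called. The labels do not say that the numbers pair samples, although replicates 1 deviated together (r = 0.556 across 14238 genes, which are not independent). With a prior count of 0.5 the 5 nearest genes to R09E12.9 shared 3 with those given and the 5 nearest to sti-1 shared 5. Depth limits the DMSO values of R09E12.9, where 43 and 22 reads have exact 95% Poisson intervals of 31.1 to 57.9 and 13.8 to 33.3 reads. The alternative for protein relatives was not run.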

Other observations

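Other neighbouring genes were compared by their differences in mean CPM alone, without the read ratios and the subtraction made for R09E12.9 and sti-1. Among the 300 tested genes that matched the annotation and had a log2 fold change of at least 3, 65 pairs lay within 10 kb without overlapping in the annotation. sti-1 passed the cut on log2 fold change narrowly, at 3.02. In 8 of the 65 pairs the larger difference in mean CPM was within 1.1 times the smaller. In 2 pairs both genes differed by at least 50 CPM between BPTMC and DMSO: sti-1 with R09E12.9, and moc-1 with oac-14 on chromosome X, 751 bases apart. moc-1, a gene of molybdenum cofactor synthesis, differed by 129 CPM and oac-14, of the acyltransferase-like oac family, by 130.0 CPM. The larger difference was 1.01 times the smaller in that pair and 1.02 times in sti-1 with R09E12.9. These pairs were noticed in the data and no test was made of them.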
